A study of Homo sapiens with 6 samples.

Results

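The genes described here are 9 regulators and markers of the intestinal epithelium, CDX1, CDX2, HNF4A, KLF5, GATA6, LGR5, ASCL2, SOX9 and VIL1, out of 20037 protein-coding genes. They were named as intestinal identity genes, and an ATAC-seq peak was assigned to one of them when its midpoint lay in the RefSeq gene body or within 10 kb of it. By this rule 20 to 26 peaks in each sample belonged to the 9 genes, of 64511 to 84510 peaks listed per sample. Peaks sharing 1 bp or more between samples were joined, which gave 33 regions at the 9 genes of 102784 over the genome.

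In ATAC-seq the transposase Tn5 cuts and tags DNA that is accessible in chromatin, and the study asked whether mild replication stress changes this accessibility. The 6 samples were RKO, a human colon cancer cell line, kept at 5% O2 and 5% CO2. In 3 of them the cells received 0.2 µM aphidicolin (APH), an inhibitor of the replicative DNA polymerases, for 16 h, and 3 received DMSO, the solvent. The study speaks of independent experiments, but the labels do not tie the sample numbers to them, so p-values here measure the spread between these samples. RKO is a single cell line and the samples are bulk, so fewer cells with an open site and less accessibility per cell cannot be told apart.

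The value of a peak is its signal, the average coverage under it, for which the authors lengthened each alignment to 200 bp and used bins of 32 nt. The sequencing depth of the samples is unknown, and the study's methods and labels name no scaling of the signal to it. DMSO 1, 2 and 3 held 65865, 77194 and 64511 peaks with a mean signal of 78.3, 85.2 and 83.1, and APH 1, 2 and 3 held 79807, 84510 and 70121 peaks with a mean signal of 69.4, 73.0 and 71.0. The peak numbers of the groups overlapped, while the mean signal of every APH sample lay below that of every DMSO sample. Signals are therefore given as deposited, and for regions shared by all samples the difference after division by the mean of all peaks of the sample is given as well.

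The intestinal epithelium is renewed from stem cells at the base of the crypts, whose daughters become absorptive or secretory cells as they move up. The homeobox proteins CDX1 and CDX2, the nuclear receptor HNF4A and the zinc finger proteins KLF5 and GATA6 are transcription factors that set and maintain the identity of this epithelium. LGR5, a receptor for R-spondins, and the transcription factors ASCL2 and SOX9 are known from the crypt base, and VIL1 encodes villin, which bundles actin in the brush border of absorptive cells.

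The promoters of KLF5, HNF4A and CDX2 are printed because each of the first 2 genes has more than 1 start in RefSeq and the peaks distinguished between them in KLF5, while CDX2 has a single listed start that carried a strong peak. Each sequence runs 5′ to 3′ on the strand of the gene from 250 bases before the start to 50 after it, was taken from RefSeq GRCh38.p14, and has its CG pairs in capitals. The KLF5 windows are chr13:73054726-73055025 and chr13:73058755-73059054 on the plus strand, the HNF4A windows are chr20:44355449-44355748 and chr20:44400989-44401288 on the plus strand, and the CDX2 window is chr13:27969266-27969565 on the minus strand.
KLF5 first start: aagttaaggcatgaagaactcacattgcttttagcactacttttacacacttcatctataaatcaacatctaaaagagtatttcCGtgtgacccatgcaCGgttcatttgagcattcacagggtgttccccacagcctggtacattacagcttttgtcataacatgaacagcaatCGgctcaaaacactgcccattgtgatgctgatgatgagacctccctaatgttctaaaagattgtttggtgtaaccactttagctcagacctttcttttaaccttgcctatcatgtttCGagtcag
KLF5 second start: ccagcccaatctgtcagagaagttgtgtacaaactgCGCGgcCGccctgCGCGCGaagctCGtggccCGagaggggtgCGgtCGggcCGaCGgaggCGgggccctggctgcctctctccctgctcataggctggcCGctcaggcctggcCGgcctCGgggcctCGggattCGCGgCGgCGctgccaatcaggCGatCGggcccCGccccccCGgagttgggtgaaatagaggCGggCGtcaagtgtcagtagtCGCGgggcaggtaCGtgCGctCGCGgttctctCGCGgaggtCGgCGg
HNF4A first start: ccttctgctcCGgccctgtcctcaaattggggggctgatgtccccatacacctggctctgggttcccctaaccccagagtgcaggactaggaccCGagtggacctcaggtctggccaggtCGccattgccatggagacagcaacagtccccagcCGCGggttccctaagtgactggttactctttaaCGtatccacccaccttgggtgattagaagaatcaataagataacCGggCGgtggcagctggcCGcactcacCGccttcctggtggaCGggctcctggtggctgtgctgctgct
HNF4A second start: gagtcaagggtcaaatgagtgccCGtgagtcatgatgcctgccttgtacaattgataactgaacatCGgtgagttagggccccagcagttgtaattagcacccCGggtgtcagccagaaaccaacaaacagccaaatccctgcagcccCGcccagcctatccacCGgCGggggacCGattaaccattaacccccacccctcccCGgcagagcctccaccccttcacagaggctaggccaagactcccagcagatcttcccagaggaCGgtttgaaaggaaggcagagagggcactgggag
CDX2 start: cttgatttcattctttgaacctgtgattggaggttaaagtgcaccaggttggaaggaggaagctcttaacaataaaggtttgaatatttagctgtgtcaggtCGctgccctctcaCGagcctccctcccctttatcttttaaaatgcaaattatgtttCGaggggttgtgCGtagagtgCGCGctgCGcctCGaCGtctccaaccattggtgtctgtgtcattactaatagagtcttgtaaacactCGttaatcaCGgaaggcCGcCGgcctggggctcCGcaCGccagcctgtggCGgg

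No sample had a peak with its midpoint within 1 kb of the first start of KLF5, whose window held 4 CG pairs, while all 6 samples had one at the second start, whose window held 37. Neither start of HNF4A, with 11 and 9 CG pairs, had a peak in any sample, and the CDX2 start, with 16 CG pairs, had a peak in every sample. The promoter of GATA6 at chr18:22169339-22169638 on the plus strand held 25 CG pairs and also had a peak in every sample. CDX1, LGR5, ASCL2, SOX9 and VIL1 have no entry among the promoter sequences, so 4 of the 9 genes were matched. Among all 35116 RefSeq promoters of this length the median was 14 CG pairs, with 26 in promoters with a peak in all samples and 4 in those with a peak in none. The share with a peak in all samples was 7.74% for promoters of 0 to 5 CG pairs, 43.9% for those of 11 to 15 and 76.7% for those of 31 or more.

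**Figure D1:**
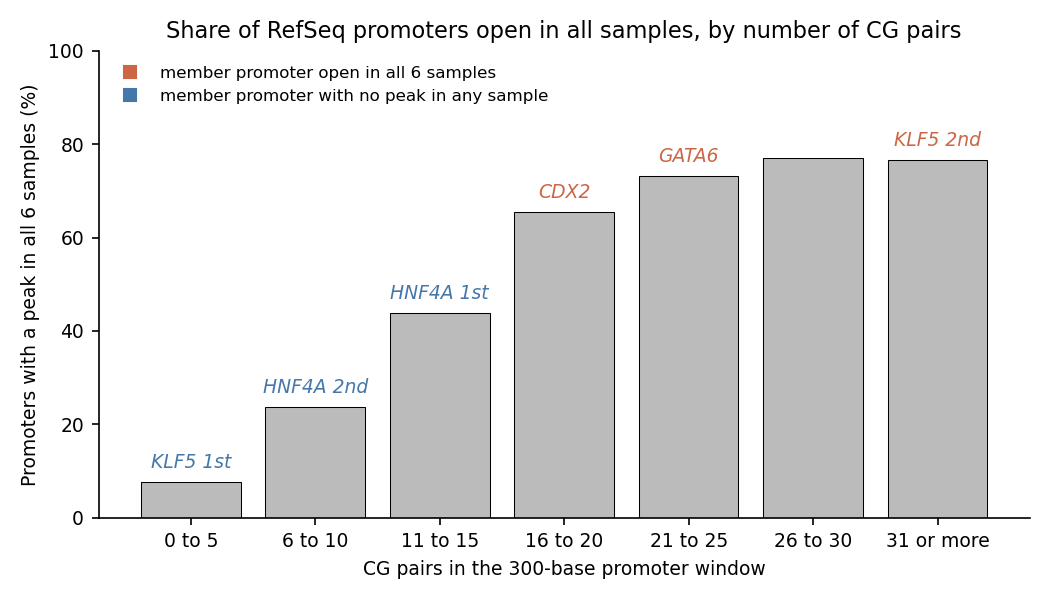
Percentage of RefSeq promoters with a peak in all 6 samples (vertical axis) by number of CG pairs in the promoter window (horizontal axis), with the promoters of CDX2, GATA6, HNF4A and KLF5 written above the bar of their class. The 3 member promoters with a peak held 16, 25 and 37 CG pairs, and the 3 without a peak held 4, 9 and 11.

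5 short motifs were searched on both strands of these windows. GGGCGG, the GC box, is in 45.0% of all promoters and occurred at 2 positions in the window of the second KLF5 start and at 1 in that of each HNF4A start. CCAAT is in 34.6% of all promoters and occurred at 2 positions in the window of the second KLF5 start, 2 in that of CDX2, 1 in that of GATA6 and 1 in that of the first HNF4A start. TATAAA, in 11.5% of all promoters, occurred once, 194 bases before the first KLF5 start. AGATAA, the core read by GATA factors, is in 10.3% of all promoters and occurred in the windows of CDX2 and of the first HNF4A start, and TTTATG, read by CDX proteins, is in 10.6% and occurred in none of the 6 windows. GGGCGG was in 70.0% of promoters with a peak in all samples and in 24.1% of those with a peak in none, CCAAT in 35.0% and 34.9%, TATAAA in 5.07% and 17.1%, AGATAA in 4.65% and 15.2%, and TTTATG in 4.79% and 15.5%. No motif match overlapped another in these windows.

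At the RefSeq gene start, taken as the outer end of the gene, 4 of the 9 genes (44.4%) had a peak within 1 kb in every sample: CDX2, GATA6, LGR5 and SOX9. CDX1, HNF4A, KLF5, ASCL2 and VIL1 had none in any sample. By this rule no start differed in state between DMSO and APH or within a group, and counting any peak that overlaps the 1 kb on each side gave 4 open starts in every sample but APH 3, which had 5. With peaks at or above the median signal of 49.7 alone, 2 starts were open in each DMSO sample, CDX2 and GATA6, and 3 in each APH sample, the added one being SOX9 in APH 1 and APH 2 and LGR5 in APH 3. Of 19675 protein-coding genes with a known strand, 10813 (55.0%) had a start peak in all samples, 1019 in some and 7843 (39.9%) in none. A count of 4 against 5 in 9 genes does not set these genes apart from that share.

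The closed starts differed in how far they lay from the nearest peak. In ASCL2 it was 1.21 to 1.28 kb away over the 6 samples, inside the gene, in KLF5 it was the peak of the second start at 3.92 to 4.15 kb, and in CDX1 it lay 5.18 to 5.22 kb upstream. In VIL1 the gap was 12.4 to 12.7 kb, and in HNF4A it was 15.1 to 28.9 kb from the first start and 2.68 to 2.72 kb from the second. The open starts also differed in strength. The mean signal of CDX2 stood above 59.8% of the 10813 open starts and that of GATA6 above 20.4%, while SOX9 stood above 2.60% and LGR5 above 1.60%, so both crypt genes were among the weakest open starts. The second start of KLF5 would stand above 59.7%, next to CDX2.

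**Figure D2:**
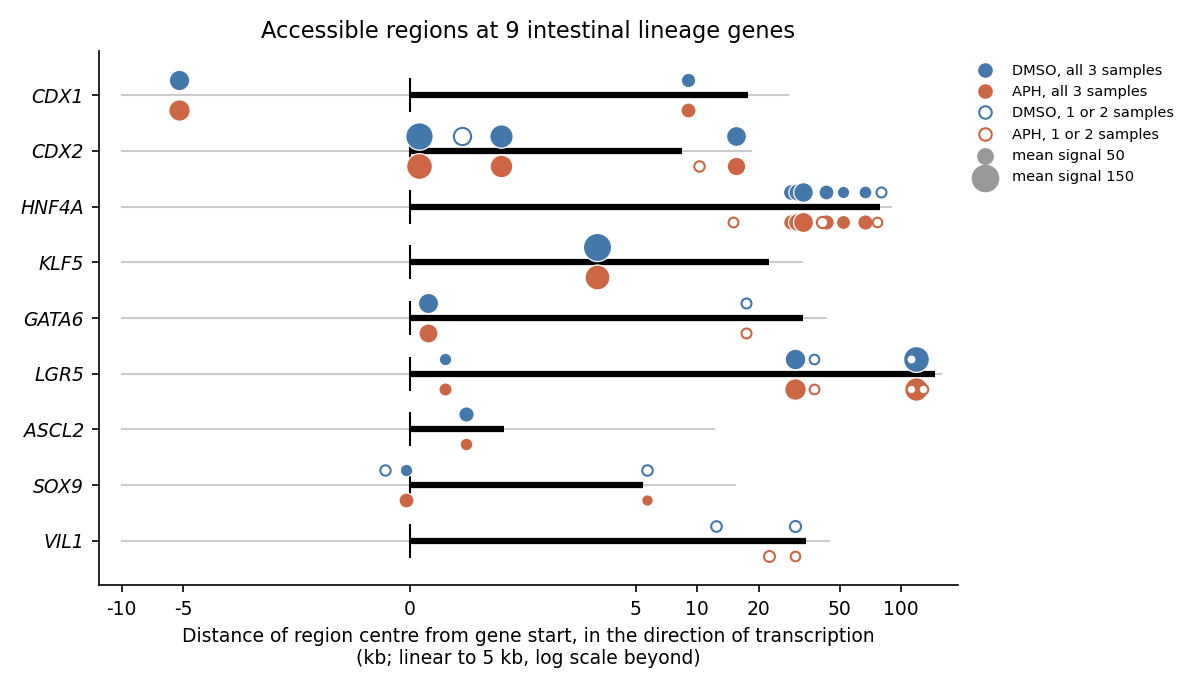
Regions at the 9 genes by distance from the gene start in kb (log scale beyond 5 kb), with genes as thick lines and the window of 10 kb on each side as thin lines. Circles above a line are DMSO and those below are APH, their area is proportional to the mean signal of the samples with a peak, and open circles mark regions with a peak in 1 or 2 samples of the group. Of the 33 regions, 18 had a peak in all 6 samples.

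The number of peaks per gene was the same in every sample at 4 of the 9 genes. KLF5 and ASCL2 had 1 peak in every sample, and CDX1 and SOX9 had 2. CDX2 had 4, 3 and 4 peaks in DMSO 1, 2 and 3 and 4, 3 and 4 in the APH samples. GATA6 had 2, 2 and 1 in DMSO and 1, 3 and 1 in APH, and VIL1 had 1, 1 and 0 in both groups. LGR5 and HNF4A held the most peaks and varied with the sample: LGR5 had 4, 5 and 3 in DMSO and 6, 5 and 3 in APH (exact permutation test, two-sided, p = 0.8), and HNF4A had 6, 7 and 6 in DMSO and 8, 6 and 7 in APH (exact p = 0.7). The groups overlapped in all 9 genes. An exact test of 3 samples against 3 cannot go below p = 0.1.

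Per 10 kb of window, the mean over samples was 1.29 peaks for CDX2, 0.787 for SOX9, 0.674 for HNF4A, 0.529 for CDX1, 0.453 for ASCL2, 0.315 for GATA6, 0.259 for LGR5, 0.235 for KLF5 and 0.123 for VIL1. In a limma fit of peak number over 17079 genes with a mean of at least 1 peak, 8 of the 9 genes entered, VIL1 being below that mean. None of the 8 was called at adjusted p 0.05, against 163 genes or 0.954% overall (132 higher and 31 lower in APH, and 820 and 97 at an unadjusted p of 0.05). Of those 163, 158 had equal peak numbers in all samples of each group, so this background is mostly windows without spread. CDX1, KLF5, ASCL2 and SOX9 had the same number in every sample and could not be called. With peak numbers made equal by keeping the strongest peaks of each sample, 159 genes were called by limma, 92 higher and 67 lower. At an unadjusted p of 0.05, 440 were then higher and 285 lower. Relative to all peaks of the sample no gene was called by limma, with 502 higher and 692 lower at an unadjusted p of 0.05, so the excess of higher calls did not hold on that scale. None of the 8 had groups that did not overlap, against 3.55% of all genes with APH higher and 0.422% with APH lower.

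In total the 9 genes held 23, 24 and 20 peaks in DMSO 1, 2 and 3 (22.3 ± 2.08, SD, n = 3) and 26, 24 and 21 in APH (23.7 ± 2.52, n = 3). As a share of all peaks these were 0.0349%, 0.0311% and 0.0310% in DMSO and 0.0326%, 0.0284% and 0.0299% in APH. The mean signal of these peaks was 73.8, 75.7 and 77.9 in DMSO and 65.2, 76.3 and 66.3 in APH. All 3 measures overlapped between the groups.

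Of the 33 regions, 18 (54.5%) had a peak in all 6 samples, against 48.8% of all regions. 6 regions (18.2%, against 18.5% of all) had peaks in APH samples alone and 4 (12.1%, against 7.03%) in DMSO samples alone, and 8 had a peak in a single sample. The 15 regions that were not shared by all samples had signals of 20.3 to 70.1, the highest being the CDX2 region listed in DMSO 1 and DMSO 3, whereas the means of the shared ones ran from 38.3 to 164.

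The signals of the 18 shared regions were compared within a limma fit of log2(signal + 1) over all 50150 shared regions. None was called after Benjamini-Hochberg adjustment, the lowest adjusted p being 0.335, and none of the 50150 was called either (0.00%). At an unadjusted p of 0.05, 1 of the 18 was higher in APH, at SOX9, and 2 were lower, at KLF5 and ASCL2, while of all shared regions 1235 (2.46%) were higher and 5062 (10.1%) lower. The same 3 regions were those in which the samples of the groups did not overlap, and over all shared regions 4.21% did not overlap with APH higher and 14.4% with APH lower. These member counts are near the background. A limma fit with a replicate block called 3 of the 18 at adjusted p 0.05, at KLF5, ASCL2 and SOX9, and 6604 of all shared regions. The labels do not say that the numbers pair the samples. The median log2 difference, APH minus DMSO, was 0.04 over the 18 regions, with 10 positive and 8 negative, and −0.06 over all shared regions, with 20403 positive and 29747 negative. Both medians turned sign when single samples were left out: that of the 18 regions was −0.09 (7 positive and 11 negative) without APH 2, −0.03 without APH 1 and −0.01 without DMSO 3, and that of all shared regions was 0.04 without DMSO 2 and 0.01 without APH 3. With peaks at or above the median signal both were −0.15, over 9 member regions and 26790 in all.

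Dividing each signal by the mean of all peaks of its sample moved the median log2 difference of all shared regions to 0.15. On this relative scale 16.9% of all shared regions did not overlap with APH higher and 3.33% with APH lower. Of the 18 member regions, 3 did not overlap with APH higher, 1 at SOX9 and 2 at HNF4A (42.8 and 66.6 kb from its first start), and none did with APH lower. The KLF5 and ASCL2 regions overlapped on this scale, and SOX9 did not overlap on either scale. The mean of all peaks was lower in every APH sample than in every DMSO sample. A region with APH higher as deposited therefore had to stay so after the division, and the relative scale is no second test of SOX9.

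**Figure D3:**
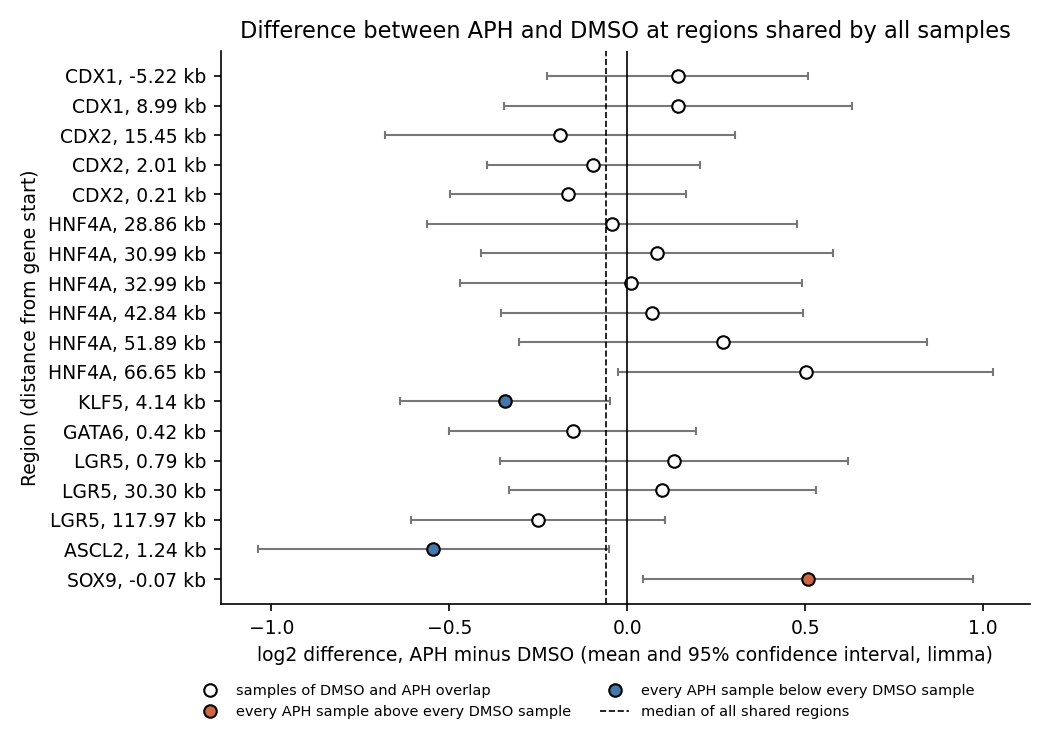
The log2 difference in signal, APH minus DMSO (horizontal axis), of the 18 shared regions, with 95% confidence intervals from limma. Filled circles mark regions whose 3 DMSO and 3 APH samples do not overlap. The intervals of SOX9, KLF5 and ASCL2 leave out 0 before adjustment, and the dashed line is the median of all shared regions at −0.06.

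CDX2, which specifies intestinal identity in the embryo and maintains it in the adult, had the strongest region at a gene start of the 9 genes. The region at its start, chr13:27968631-27969579, had a signal of 159.5, 214 and 148 in DMSO 1, 2 and 3 and of 159, 166 and 135 in APH 1, 2 and 3. DMSO 2 stood above all others and the groups overlapped. The means were 174 ± 34.9 and 153 ± 16.6 (SD, n = 3 each), a log2 difference of −0.17 with SE 0.16 (limma, adjusted p = 0.703). It was −0.00996 without DMSO 2, and relative to all peaks it was 0.04. A second region inside the gene, 2.01 kb from the start, had 119.9, 136 and 122 in DMSO and 122, 120.4 and 111 in APH (adjusted p = 0.832). A weaker region between them, 1.15 kb from the start, was listed in DMSO 1 and DMSO 3 at 67.3 and 70.1, and one 10.2 kb from the start in APH 1 and APH 3 at 23.7 and 26.6. A region 15.5 kb from the start, past the end of CDX2 and at the noncoding gene LINC00543, had 89.5, 64.1 and 121 in DMSO and 67.7, 66.0 and 104 in APH. There sample 3 of each group was the highest, and the groups overlapped. Relative to all peaks the log2 differences of the regions at 2.01 and 15.5 kb were 0.11 and 0.02.

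CDX1, the related factor whose start was closed, had a pair of shared regions. The stronger, chr5:150161157-150161957, lay 5.22 kb upstream and had a signal of 84.6, 115 and 88.5 in DMSO and 116, 112 and 88.7 in APH. The other, inside the gene at 8.99 kb, had 45.9, 61.7 and 36.8 in DMSO and 55.9, 56.0 and 45.0 in APH. Both overlapped between the groups, with log2 differences of 0.14 each (limma adjusted p = 0.787 and 0.850). That of the stronger region ran from 0.06 without DMSO 1 to 0.27 without DMSO 2, and relative to all peaks both were 0.35, with groups that overlapped.

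HNF4A, a receptor that acts in intestinal, liver and pancreatic cells, had 6 shared regions at 28.9, 31, 33.0, 42.8, 51.9 and 66.6 kb from its first start, the first 3 of them also inside the antisense gene HNF4A-AS1. The strongest, chr20:44388468-44388902 at 33.0 kb, had a signal of 95.8, 101 and 70.6 in DMSO and 107, 111 and 59.2 in APH. Sample 3 was the lowest in each group, the groups overlapped, and the log2 difference was 0.01 with SE 0.23 (limma adjusted p = 0.992). The regions at 28.9 and 31 kb had log2 differences of −0.04 and 0.08 with groups that overlapped (limma adjusted p = 0.966 and 0.925). The region at 42.8 kb, the nearest to the second start, had 50.2, 57.5 and 48.0 in DMSO and 52.7, 54.8 and 55.6 in APH. The region at 51.9 kb had 36.2, 35.3 and 35.8 in DMSO and 55.1, 57.1 and 25.6 in APH. Here the DMSO samples lay close together while APH 1 and 2 stood above and APH 3 below them. The region at 66.6 kb had 28.5, 49.2 and 37.9 in DMSO and 50.7, 69.4 and 43.9 in APH. The groups overlapped through DMSO 2, and the log2 difference of 0.50 (SE 0.25, 95% confidence interval −0.03 to 1.03) had an unadjusted limma p of 0.0608 and an adjusted p of 0.422. Relative to all peaks the log2 differences were 0.16 at 28.9 kb, 0.29 at 31 kb, 0.22 at 33.0 kb, 0.28 at 42.8 kb, 0.48 at 51.9 kb and 0.72 at 66.6 kb, and the groups did not overlap at 42.8 and 66.6 kb (exact p = 0.1 each).

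The remaining 4 regions of HNF4A were each listed in 1 sample, at 22.1 in APH 3, 29.3 and 21.1 in APH 1 and 22.8 in DMSO 2. In the shared regions DMSO 2 was the highest DMSO sample in 5 of the 6 regions and APH 2 the highest APH sample in 5, and APH 3 was the lowest APH sample in 5, whereas the lowest DMSO sample was DMSO 1 in 2 regions, DMSO 2 in 1 and DMSO 3 in 3. Over all 50150 shared regions DMSO 2 was the highest DMSO sample in 68.9%, APH 2 the highest APH sample in 58.7% and APH 3 the lowest in 59.8%. DMSO 2 and APH 2 were also the samples with the most peaks in their groups. The part of peak number in the values at HNF4A was not tested.

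**Figure D4:**
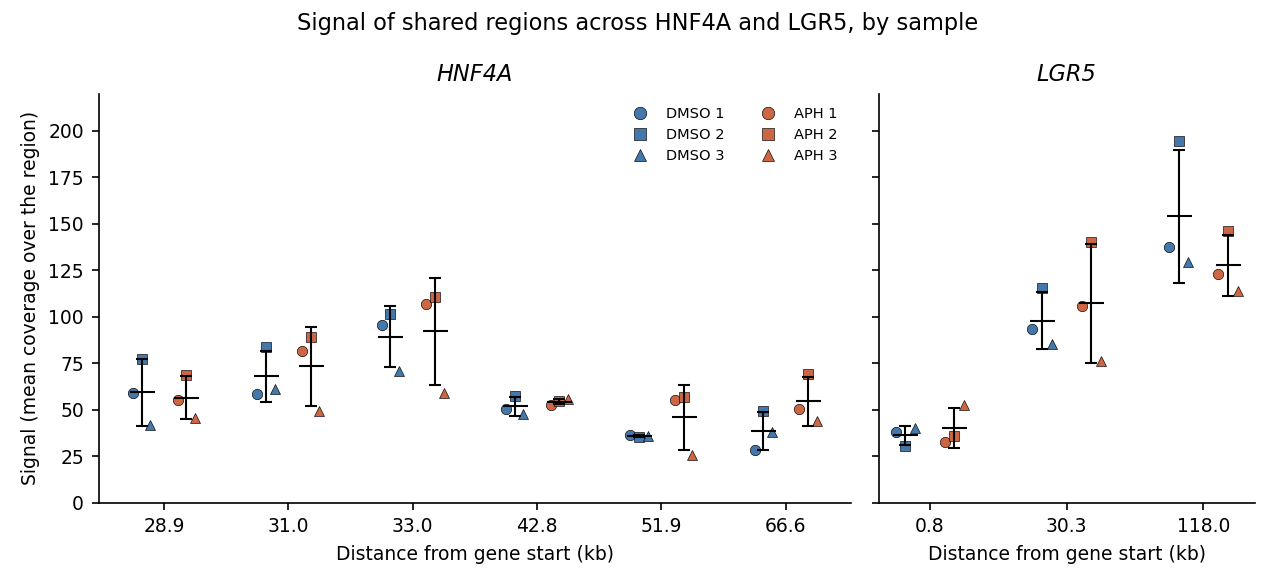
Signal (vertical axis) in each sample of the shared regions across HNF4A and LGR5, by distance from the gene start in kb. Horizontal marks and bars are the mean ± SD of 3 samples. DMSO 2 is the highest DMSO sample in 5 of the 6 HNF4A regions, and APH 2 is the highest APH sample in 5, not all of them the same.

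KLF5, a Krüppel-like factor of proliferating crypt cells, had a single region, chr13:73058577-73059656, which covers the promoter of its second start shown above. Its signal was 179, 164 and 206 in DMSO and 144, 154 and 133 in APH. Every APH sample was below every DMSO sample, with means of 143 ± 10.7 and 183 ± 21.4 (SD, n = 3 each). The log2 difference was −0.34 with SE 0.14, which is 0.788-fold with a 95% confidence interval of 0.642 to 0.966 on the log2(signal + 1) scale (exact permutation p = 0.1; limma p = 0.0249 unadjusted and 0.335 adjusted). Relative to the mean of all peaks the values were 2.28, 1.92 and 2.48 in DMSO and 2.07, 2.11 and 1.87 in APH, which overlap (exact p = 0.3). The log2 difference on this relative scale was −0.14. The peak was 788, 752 and 750 bp wide in DMSO and 629, 650 and 1068 bp in APH, the widest and the narrowest being APH samples.

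GATA6, a GATA factor of endoderm and of the proliferating crypt, had its start inside a broad region of 1867 bp, chr18:22169073-22170939. Its signal was 95.9, 86.3 and 99.1 in DMSO and 75.1, 89.5 and 88.3 in APH. APH 1 was the lowest and the groups overlapped (93.8 ± 6.68 and 84.3 ± 8.0, SD, n = 3 each; exact p = 0.3; limma adjusted p = 0.747). The log2 difference was −0.15 as deposited, −0.07 without APH 1 or with quantile normalization, and 0.05 after division by the mean of all peaks. A weak region 17.3 kb from the start was listed in DMSO 2 at 22.9 and in APH 2 at 22.8.

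LGR5, the stem cell receptor, was weak at its start and stronger far inside the gene. The start region, chr12:71439503-71440332, had a signal of 37.9, 30.5 and 40.3 in DMSO and 32.5, 36.1 and 52.5 in APH. APH 3 was the highest, the groups overlapped, and the log2 difference of 0.13 (limma adjusted p = 0.865) was −0.07 without APH 3. A region at 30.3 kb had 93.3, 115 and 85.4 in DMSO and 106, 140.2 and 76.2 in APH. The strongest, chr12:71556850-71557348 at 118 kb, had 138, 195 and 129 in DMSO and 123, 146 and 114 in APH. In both internal regions sample 2 was the highest and sample 3 the lowest of each group. The groups overlapped in both, with log2 differences of 0.10 and −0.25 (limma adjusted p = 0.889 and 0.565). The second difference was −0.07 without DMSO 2. Relative to all peaks the differences were 0.34 at the start, 0.31 at 30.3 kb and −0.05 at 118 kb, with groups that overlapped. The remaining 3 regions of LGR5 had signals between 20.3 and 24.8 in the 1 to 4 samples that listed them.

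ASCL2, a basic helix-loop-helix factor of crypt stem cells, had its single region, chr11:2269084-2269608, inside the gene 1.24 kb from the start. Its signal was 55.9, 45.2 and 62.3 in DMSO and 43.1, 27.9 and 40.9 in APH. Every APH sample was below every DMSO sample, with means of 37.3 ± 8.23 and 54.4 ± 8.66 (SD, n = 3 each). The log2 difference was −0.55 with SE 0.23, or 0.685-fold with a 95% confidence interval of 0.487 to 0.964 (exact permutation p = 0.1; limma p = 0.0321 unadjusted and 0.357 adjusted). Relative to the mean of all peaks the values were 0.714, 0.530 and 0.750 in DMSO and 0.621, 0.382 and 0.576 in APH, which overlap (exact p = 0.3). The log2 difference on this relative scale was −0.35.

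SOX9, a transcription factor of crypt base and progenitor cells, had a weak start region, chr17:72120746-72121152, which lies as well within 1 kb of the start of the antisense gene SOX9-AS1. Its signal was 37.3, 40.9 and 30.5 in DMSO and 60.3, 50.8 and 44.8 in APH. Every APH sample was above every DMSO sample, with means of 52.0 ± 7.82 and 36.2 ± 5.31 (SD, n = 3 each). The log2 difference was 0.51 with SE 0.22, or 1.42-fold with a 95% confidence interval of 1.03 to 1.96 (exact permutation p = 0.1; limma p = 0.0338 unadjusted and 0.360 adjusted). Relative to the mean of all peaks the values were 0.477, 0.480 and 0.367 in DMSO and 0.868, 0.696 and 0.630 in APH. These do not overlap (exact p = 0.1), which was fixed in advance because that mean was lower in every APH sample. The log2 difference on this relative scale was 0.73. Over all 10813 starts with a peak in every sample, the start signals did not overlap with APH higher in 0.694% and with APH lower in 42.2%, and SOX9 was the 1 of the 4 open member starts that did not overlap. Among the weakest 10% of these starts, to which SOX9 and LGR5 belong, the shares were 3.88% and 15.2%. A region at −538 bp from the SOX9 start was listed in DMSO 1 alone, at 24.7. A region just past the end of the gene, 5.69 kb from the start, was listed in 5 samples, at 27.9 and 22.9 in DMSO 2 and 3 and at 30.7, 29.4 and 31.4 in APH. All of its 3 APH values were above both DMSO values, and DMSO 1 listed no peak there.

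**Figure D5:**
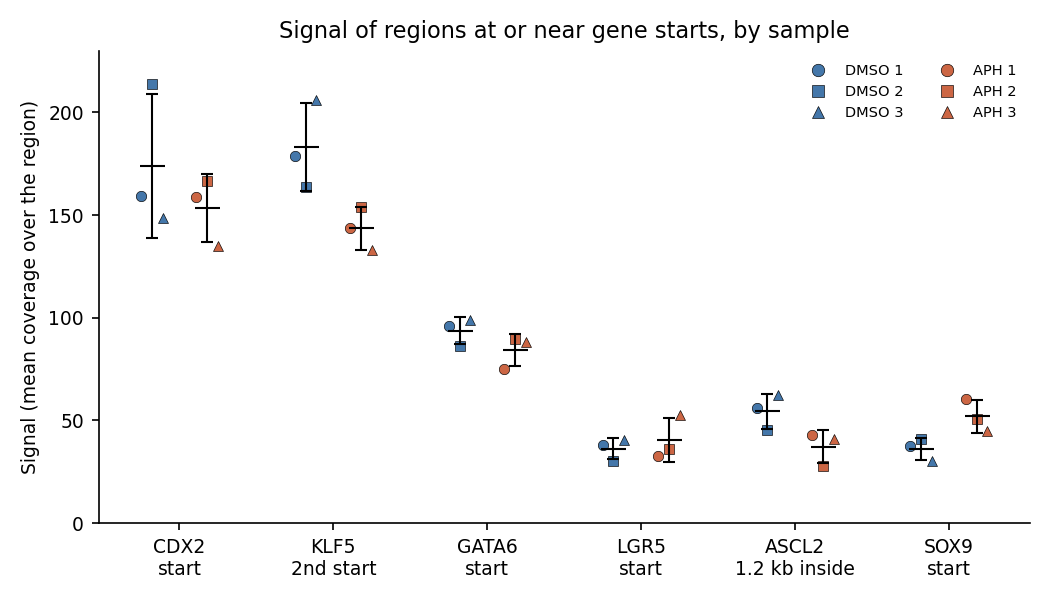
Signal (vertical axis) in each sample of the regions at the starts of CDX2, GATA6, LGR5 and SOX9, at the second start of KLF5 and 1.24 kb inside ASCL2. Horizontal marks and bars are the mean ± SD of 3 samples. APH lies below DMSO in every sample at KLF5 and ASCL2 and above it at SOX9, and the groups overlap at CDX2, GATA6 and LGR5.

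VIL1 had no region shared by all samples. Its 3 regions were weak: one 12.4 kb from the start was listed in DMSO 2 at 25.9, one at 22.5 kb in APH 2 at 27.6, and one at 30 kb in DMSO 1 at 28.3 and in APH 1 at 21.2. DMSO 3 and APH 3 listed no peak at VIL1. The lowest signal listed anywhere was 15.1 to 15.5 in the 6 samples.

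For each gene with an open start, the genes most like it over the 6 samples were found by the Euclidean distance between log2 start signals. They were FOXO3B and RARS1 for CDX2 (distances 0.132 and 0.162), NEDD4L and HSF4 for GATA6 (0.0913 and 0.130), MAN1A1 and ILDR2 for LGR5 (0.227 and 0.315), and DAB2IP and RASEF for SOX9 (0.313 and 0.393). The distance reflects the level as well as the pattern, and it was larger for the weak starts of LGR5 and SOX9 than for CDX2 and GATA6.

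Windows of 50 kb on each side of the genes held 46, 51 and 45 peaks in DMSO and 60, 58 and 57 in APH. CDX1 had 7, 8 and 8 peaks in DMSO and 10, 10 and 11 in APH, and CDX2 had 8, 7 and 7 against 10, 9 and 11. VIL1 had 6, 6 and 6 against 8, 8 and 7, and ASCL2 had 2, 2 and 2 against 4, 3 and 3. In these 4 of the 9 genes every APH sample held more peaks than every DMSO sample (exact p = 0.1 each), which was so for 6.29% of 18948 genes. Expressed as a percentage of each sample's peaks, 2 of the 9, ASCL2 and VIL1, did not overlap with APH higher, against 4.35% of those genes, and 1, KLF5, with APH lower, against 9.39%. The windows of 10 kb showed no such difference in any of the 9 genes. CDX1, CDX2, VIL1 and ASCL2 had the same numbers in both groups there. Their added peaks thus lay more than 10 kb from the gene, outside the rule that assigns peaks to these genes.

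Other genes of the intestinal lineage were read at their starts in the same way. Of all protein-coding genes with a known strand, 55.0% had a start peak in all samples and 39.9% in none. Of 11 further regulators, 5 (45.5%) had a start peak in all samples and 6 (54.5%) in none. KLF4, a factor of differentiated epithelium, was the strongest, with 151, 141 and 162 in DMSO and 103, 106 and 128 in APH, every APH sample being lower (limma log2 difference −0.43, adjusted p = 0.295, at the shared region nearest the start). HNF4G (mean 118) had 114, 115 and 108 in DMSO and 126, 122 and 121 in APH over its start peaks, every APH sample being higher, while the shared region nearest its start had a limma log2 difference of −0.16 (adjusted p = 0.666). Of all open starts, 0.694% did not overlap with APH higher, so the 2 measures of HNF4G differ in direction and no change is read from them. PDX1 (103), ELF3 (81.3) and FOXA1 (51.6) were also open with groups that overlapped, and CDX4, GATA4, FOXA2, FOXA3, ISX and PROX1 had no start peak. Of 12 crypt and stem cell genes, 7 (58.3%) had a start peak in all samples, 2 in some (EPHB2 and MSI1) and 3 in none (OLFM4, SMOC2 and PROM1). The strongest were the ephrin receptor EPHB3 (mean 215), LRIG1 (169.5), CD44 (115) and ZNRF3 (104), and at these 4 of the 7 open starts every APH sample was below every DMSO sample, against 42.2% of all open starts. BMI1, RNF43 and AXIN2 were the other 3. ZNRF3, a ligase that removes Wnt receptors, had 125, 116 and 159 in DMSO and 60.5, 68.2 and 97.5 in APH (limma log2 difference −0.74 at the shared region nearest the start, unadjusted p = 0.000823, adjusted p = 0.290).

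Genes of the differentiated cell types were mostly closed. No start peak in any sample was listed for 71.4% of the absorptive and 60% of the secretory genes, against 39.9% of all protein-coding genes. Of 14 absorptive and brush border genes, 1 had a start peak in all samples, the carbonic anhydrase gene CA2 (mean 204), 3 had one in some and 10 in none, among them FABP1, ALPI, SI and SLC26A3. KRT20 was listed in APH 1 and APH 2 alone, at 26 and 24.8, CA1 in DMSO 2 alone, at 29.1, and APOB in 5 samples of both groups, at 25.1 to 40.4. Of 10 secretory genes, GFI1 (mean 86.4) and ATOH1 (40.3) had a start peak in all samples, NEUROG3 and CHGA in some, and SPDEF, MUC2, TFF3, NEUROD1, LYZ and DEFA5 in none. Of the genes closed at the gene start, 3 regulators, 3 crypt genes, 7 absorptive genes and 3 secretory genes had entries among the RefSeq promoters, and none of these had a peak at any listed start. The regions shared by all samples had a median log2 difference of −0.12 for the regulators (23 regions), −0.02 for the crypt genes (35), 0.01 for the absorptive genes (14) and −0.13 for the secretory genes (11), beside −0.06 over all shared regions. None of these regions was called by limma at adjusted p 0.05. At an unadjusted p of 0.05, 1 region was lower among the regulators, 4 were lower among the crypt genes, none was higher in these lists, and none passed in either direction among the absorptive and secretory genes. Over all shared regions 10.1% were lower and 2.46% higher at this p.

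Markers of cell types were mixed at their starts. These lists are short, and 55.0% of all protein-coding genes had a start peak in all samples. Of 6 epithelial markers EPCAM (mean 57.9) and KRT8 (231) had a start peak in all samples and KRT18 in 5, while CDH1, KRT19 and CLDN7 had none. Of 6 mesenchymal markers COL1A1 (68.7), COL1A2 (82.2) and ZEB1 (217) had one in all samples, and VIM, COL3A1 and PDGFRA had none at the gene start, although another RefSeq start of PDGFRA had a peak in all samples. The neural markers SNAP25 and SYP were open and GFAP was not. No start peak was listed for 3 liver and 2 endothelial markers, and of 5 blood markers CD14 alone had one, in APH 3. All 6 reference genes were open in all samples, and at 4 of them, ACTB, GAPDH, RPLP0 and POLR2A, every APH sample was below every DMSO sample as deposited, as it was at 42.2% of all open starts. ACTB had 215, 210.4 and 199.9 in DMSO and 179, 180.1 and 159 in APH.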

How the data were processed

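The data are ATAC-seq peak lists, 1 for each of 6 RKO samples. The authors deposited a signal for each peak, the mean coverage of alignments extended to 200 bp in 32-nt bins. Per the submitters' processing notes, BWA 0.7.12, MACS2 2.1.0 and hg38 were used, and peaks were called in each sample separately. Genes and starts came from RefSeq GRCh38.p14, with the strand from its promoter table or, by symbol, from GENCODE, for 19675 of 20037 protein-coding genes. Region signals are means of peaks weighted by length. limma 3.58.1 (R 4.3.3) was fitted with an intensity trend to log2(signal + 1) and to log2(peak number + 1), with Benjamini-Hochberg adjustment at 0.05, and single values were compared with two-sided exact permutation tests. Python 3.11.15, numpy 2.4.6, pandas 2.3.3 and matplotlib 3.10.9 were used.

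By rule the regions named in each gene are the one at the start, the strongest, and the one of smallest p if the groups did not overlap. Other regions were described after their values were seen. Genes of the other lists are named by highest start signal or by having a start peak in all, some or no samples. Some genes given with their values, such as ZNRF3 and ACTB, did not have the highest start signal of their lists. The members and lists were chosen with earlier results of these data known. Alternatives covered the start radius, window, peak threshold, overlap, pseudocount, filter, centring, quantile normalization, an equal number of peaks, leaving out each replicate and a replicate block. The second starts, the relative signals of regions, a minimum signal of 30 at starts, the comparison of 50 kb windows with all genes and the overlap of groups over open starts were added after the data were seen. The strand of PECAM1 was not matched, so it has no value, and some genes of the regulator list are not reported here.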

Additional observations from a re-analysis of the deposited data

How the results depend on the processing

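The cause of the changes below was not tested. The number of regions called by limma over all shared regions was 0, and 1 after centring on sample medians, 202 with a peak in at least 3 samples (156 higher and 46 lower), and 0 to 3 with a replicate left out, 3 being without DMSO 2. In the setting of at least 3 samples, a sample without a peak was given its lowest listed signal. Part of the values behind those 202 calls was thus filled in and not measured. The share of unadjusted calls that were higher was 19.6%, 38.6% after centring, 56.2% after quantile normalization, 4.89% with peaks at or above the median signal, and 8.69% to 44.7% with a replicate left out. With a replicate block 6604 regions were called (1021 higher and 5583 lower) and 3 of the member regions, with an adjusted p of 0.0316 at KLF5, 0.0312 at ASCL2 and 0.0462 at SOX9 and log2 differences of −0.34, −0.55 and 0.51. The labels do not say that the numbers pair the samples, and deviations of same-numbered samples correlated at −0.01, 0.48 and 0.52; samples numbered 2 and 3 correlated best with their own number and those numbered 1 did not (DMSO 1 with APH 3 at 0.13). Over the alternatives other than the relative scale, left-out replicates included, the lowest and highest log2 differences were −0.42 and −0.16 at KLF5, −0.67 and −0.35 at ASCL2 and 0.39 and 0.61 at SOX9, with adjusted p-values up to 0.887, 0.887 and 0.892. On the relative scale the log2 differences were −0.14 at KLF5, −0.35 at ASCL2 and 0.73 at SOX9. With peaks at or above the median signal ASCL2, SOX9 and the LGR5 start were no longer shared by all samples and have no value.

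The 163 gene windows called for peak number became 88 with a mean of at least 3 peaks, 0 relative to all peaks of the sample (502 higher and 692 lower at an unadjusted p of 0.05) and 337 to 595 with a replicate left out. With peak numbers made equal between samples, in the 10 kb windows, the LGR5 difference of 0.667 peaks became −0.333 and the total peak difference of 1.33 became −0.667. Numbers were made equal by keeping the strongest peaks of each sample, which drops the weakest peaks and is no random draw. With a replicate left out the LGR5 and total differences ran from 0 to 1.5 and from 0.167 to 2.67. With 50 kb on each side the total difference was 11. With peaks at or above the median signal the mean signal difference of the 9 genes was −11.9 in place of −6.54 (−2.17 with equal peak numbers, and −10.04 to −4.51 with a replicate left out), and 2 starts, CDX2 and GATA6, were open in all samples. Relative to all peaks the log2 difference of this mean signal was 0.07, and 0.02 to 0.10 with a replicate left out. It was −0.0007 with peaks at or above the median signal. Starts open in all samples numbered 3 within 500 bp, without LGR5, and 5 within 2 kb, with ASCL2. The CDX2 start difference was 0.0226 after quantile normalization and 0.0392 relative to all peaks, and that of GATA6 was 0.0515 relative to all peaks. The HNF4A region at 33.0 kb ranged from −0.15 to 0.30 with a replicate left out, negative without DMSO 3 (−0.15), APH 1 (−0.12) or APH 2 (−0.15), and the LGR5 start from −0.0692 to 0.27, negative without APH 3. Depth is unknown, so a start without a peak may hold signal below the calling threshold.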
